A study of Mus musculus with 6 samples.

Results

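The genes described here encode the machinery with which a phagocyte recognises a dying cell and begins to swallow it. They are the TAM receptor kinases Tyro3, Axl and Mertk, the TAM ligands Gas6 and Pros1, the integrin bridge Mfge8, the lipid receptor Timd4, and the engulfment adaptors Elmo1 and Dock2. The 9 genes were given by name, and all 9 were found by symbol among the 49585 genes counted. They were followed in microglia, the resident macrophages of the brain, from male mice aged 3 months. The WT group held 3 libraries from wild-type mice, and the IRF8KO group held 3 libraries from mice labelled as knockouts of IRF8, a transcription factor of macrophages and their relatives. Each library came from a separate brain, and the cells were taken out by an enzyme-free method before flow sorting. The mouse strain, the sorting markers and whether IRF8 was deleted in all cells or only in some are not given in the sources used here.

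A dying cell moves the lipid phosphatidylserine to its outer surface. Gas6 and protein S, the product of Pros1, bind that lipid with one end, which must first be carboxylated with the help of vitamin K, and a TAM receptor with the other. MFG-E8, the product of Mfge8, bridges the lipid to integrins instead, and TIM-4, the product of Timd4, binds it directly. Inside the phagocyte the ELMO and DOCK proteins work as a pair that activates the GTPase Rac, and Rac drives the actin cup around the corpse. In the brain, Mertk and Axl are the TAM receptors associated with microglia, whereas Tyro3 is known mainly from neurons.

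The libraries held between 3658917 and 11098363 gene counts. Levels below are CPM, counts per M of the scaled library size (1 M is 1000000), and a gene counts as called where edgeR's quasi-likelihood test gave an adjusted p (Benjamini-Hochberg, over all 11041 tested genes) under 0.05. Irf8 itself had 793, 849 and 1400 CPM in WT replicates 1, 2 and 3 and 741, 648 and 848 CPM in the libraries labelled IRF8KO. It was not called (log2 fold change −0.44, SE 0.33, adjusted p = 0.368), and whole-gene counts do not show whether an exon is missing. It was called lower with library size alone (−0.90, 0.0076) and with a term for how each library leaned along GC content (−0.58, 0.0498). Each direction below therefore rests on the labels, and "IRF8KO" means labelled so. All 14 microglia markers examined were tested; 8 were called lower and 1, Fcrls, higher (log2 fold change 1.35), with a median of −1.64. P2ry12 (−4.12) and Cx3cr1 (−2.16) were among the lower ones, as was Sall1, which had 0 counts in the IRF8KO libraries. The marker sum ran from 47030 to 74950 CPM in WT and from 34070 to 47770 CPM in IRF8KO, with Csf1r and Tmem119, neither of them called, as the largest parts in WT. All 9 tested markers of border-associated macrophages, of a list of 12, were higher in IRF8KO, with sums of 8.26 to 15.3 CPM in WT and 2397 to 3154 CPM in IRF8KO, while Lyve1 and Cd209f had 0 counts in every library. Several other marker sums were mostly 1 gene or held genes of opposite direction. Lymphocyte markers summed to between 517 and 857 CPM in WT and between 32.9 and 45.0 CPM in IRF8KO, of which Ighm made 452 to 755 CPM in WT, while Cd3e, Cd8a, Ms4a1 and Gzma had 0 counts in all libraries. Cd4, of the same list, was called higher, with 0 counts in each WT library and 26, 37 and 41 counts in IRF8KO replicates 1, 2 and 3. Pericyte and fibroblast markers summed to between 0.413 and 9.12 CPM in WT and between 45.0 and 99.4 CPM in IRF8KO, and without Cspg4 to between 0.137 and 8.35 CPM and between 0.866 and 9.45 CPM, with Col1a2, Dcn, Lum, Kcnj8 and Rgs5 at 0 in all libraries. Endothelial markers summed to between 20.1 and 30.4 CPM in WT and between 8.49 and 14.4 CPM in IRF8KO, of which Pecam1 made 17.9 to 21.0 CPM in WT. Oligodendrocyte markers summed to between 285 and 699 CPM in WT and between 483 and 693 CPM in IRF8KO, with Olig2 at 0 in all libraries. Among them Cnp was called lower (−2.04, adjusted p = 0.0028), and Mbp, not called, had 136, 43.9 and 274 CPM in WT replicates 1, 2 and 3 and 544, 401 and 364 CPM in IRF8KO. The part of all these cell types in the results below was not tested. In such bulk samples, fewer cells of a type and less RNA per cell cannot be told apart. WT replicate 3 stood apart from the other WT libraries along GC content, and the IRF8KO libraries were spread along it, as described after the genes themselves.

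Transcripts of 4 of the 9 genes fell in IRF8KO: Pros1 by the most, then Mertk, Axl and Elmo1, with log2 fold changes of −1.52, −1.51 and −1.40. Across all tested genes 9.46% were called lower, 9.64% were called higher and 19.1% were called in either direction. Gas6, Dock2, Mfge8 and Tyro3 were tested and not called, and Timd4 had no counts. The median log2 fold change of the 8 tested genes was −0.74, against −0.11 for all tested genes. For 3 of the 8 the values of WT and IRF8KO did not overlap, a share close to the 37.9% of all tested genes for which this held.

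**Figure D1:**
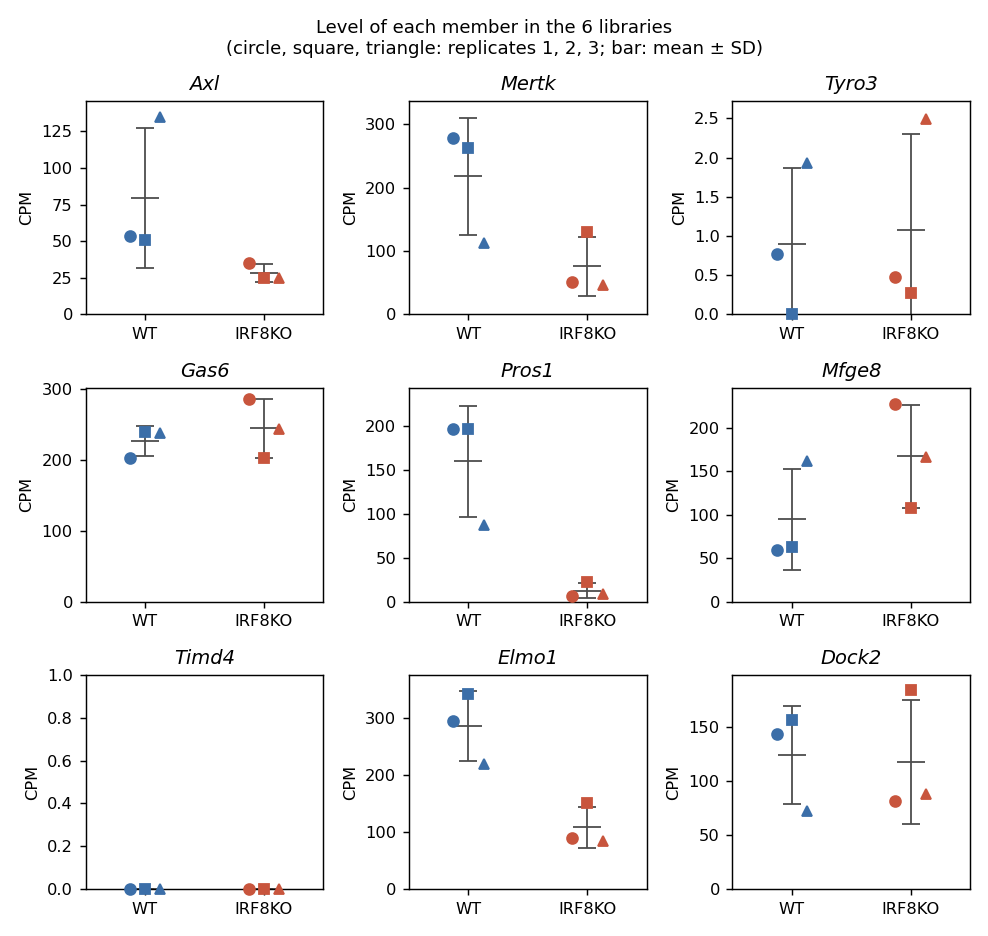
Level in CPM (vertical axis, from 0) of each of the 9 genes in the WT and IRF8KO libraries, with circles, squares and triangles for replicates 1, 2 and 3 and bars for the mean ± SD (n = 3 per group). Axl, Pros1 and Elmo1 have no overlap between groups, Mertk overlaps by WT replicate 3 (112 CPM) and IRF8KO replicate 2 (129.8 CPM), and Timd4 lies at 0 throughout.

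Mertk (ENSMUSG00000014361, chromosome 2, 128698956 to 128802894, plus strand; coordinates are GRCm38, the assembly also named mm10), the receptor with which macrophages clear apoptotic cells at rest and a known target gene of the liver X receptors, had 278.5, 263 and 112 CPM in WT replicates 1, 2 and 3. In IRF8KO replicates 1, 2 and 3 it had 50.4, 129.8 and 47.0 CPM. The groups overlapped, because WT replicate 3 lay below IRF8KO replicate 2. Mean levels were 218.0 ± 91.9 CPM in WT against 75.7 ± 46.9 CPM in IRF8KO (SD, n = 3). That is a log2 fold change of −1.52 (SE 0.45, adjusted p = 0.0352), with a mean 2.87-fold lower in IRF8KO. The call was lost without WT replicate 1 or 2 (adjusted p = 0.0896 and 0.0959) and without IRF8KO replicate 1 or 3 (0.157 and 0.186), with log2 fold changes between −1.37 and −1.25. It was also lost when Apoe, which took between 25.5% and 33.7% of the counts in IRF8KO, was left out before scaling (log2 fold change −1.41, SE 0.47, adjusted p = 0.0575). IRF8KO replicate 2, the library with the most Mertk of its group, also held 233 CPM of the 12 monocyte markers, against 2.71 to 5.12 CPM in the other IRF8KO libraries and 0.413 to 1.63 CPM in WT. Without it the log2 fold change of Mertk was −2.15 (adjusted p = 0.0083). The part of monocytes in the Mertk values was not tested.

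Axl (ENSMUSG00000002602, chromosome 7, 25757273 to 25788705, minus strand), the TAM receptor that macrophages raise under interferon and inflammation, had 53.4, 50.9 and 134.5 CPM in WT replicates 1, 2 and 3 and 35.1, 24.6 and 24.6 CPM in IRF8KO replicates 1, 2 and 3. Every IRF8KO library lay below every WT library, but WT replicate 3 lay far above the other WT libraries. The log2 fold change was −1.51 (SE 0.39, adjusted p = 0.0202), or 2.84-fold lower. Without WT replicate 3 it was −0.87 and still called (adjusted p = 0.0208), as it was with IRF8KO replicate 2 left out too (−0.72, 0.0398). Leaving out IRF8KO replicate 1, 2 or 3 ended the call, with adjusted p of 0.0561, 0.0631 and 0.121 and log2 fold changes of −1.69, −1.41 and −1.41.

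Tyro3 (ENSMUSG00000027298, chromosome 2, 119797733 to 119818104, plus strand), the third receptor of the family, was near the limit of counting. It had 4, 0 and 14 counts in WT replicates 1, 2 and 3 and 3, 3 and 23 counts in IRF8KO, which is at most 1.93 CPM in WT and 2.49 CPM in IRF8KO. No difference was detectable at this depth (log2 fold change 0.32, SE 1.29, adjusted p = 0.89). The 12 neuronal markers examined summed to between 1.41 and 11.1 CPM in WT and between 23.4 and 29.0 CPM in IRF8KO.

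Among the 3 receptors, levels per kb of exonic length (CPM per kb) put Mertk first in both groups on average. Mertk made up 85.7%, 85.7% and 48.9% of the summed receptor level in WT replicates 1, 2 and 3 and 62.3%, 85.9% and 67.2% in IRF8KO replicates 1, 2 and 3. In WT replicate 3 Axl held the larger part, with 50.5%. The summed receptor level was 66.2 ± 11.7 CPM per kb in WT and 23.2 ± 10.2 CPM per kb in IRF8KO (SD, n = 3), with the lowest WT library (52.9) above the highest IRF8KO library (34.9). The ratio of Axl to Mertk counts within a library, which does not depend on how libraries are scaled, overlapped between groups. Its log2 values averaged −1.50 ± 1.52 in WT and −1.28 ± 0.98 in IRF8KO (SD, n = 3; two-sided exact permutation test, p = 1.0, adjusted 1.0 over 5 ratios compared).

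Pros1 (ENSMUSG00000022912, chromosome 16, 62854307 to 62929346, plus strand), which encodes protein S, a TAM ligand that is also an anticoagulant of the blood, had the largest fitted change of the 9 named genes. It had 196.4, 196.6 and 87.0 CPM in WT replicates 1, 2 and 3. In IRF8KO replicates 1, 2 and 3 it had 6.73, 22.3 and 8.98 CPM. The lowest WT library was above the highest IRF8KO library. The log2 fold change was −3.64 (SE 0.49, adjusted p = 4.3e-04), or 12.5-fold lower, and Pros1 was called lower in all 18 alternatives, with adjusted p up to 0.0104 and log2 fold changes from −4.54 to −3.05. Without IRF8KO replicate 2, the library with the most Pros1 of its group, the log2 fold change was −4.33 (adjusted p = 3.5e-04).

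Gas6 (ENSMUSG00000031451, chromosome 8, 13465374 to 13494490, minus strand), the other TAM ligand, had 202.8, 240.4 and 238.9 CPM in WT replicates 1, 2 and 3 and 286.3, 203.6 and 244.7 CPM in IRF8KO. IRF8KO replicates 1 and 3 lay above all WT libraries and IRF8KO replicate 2 lay within their range, and the log2 fold change was 0.11 (SE 0.27, adjusted p = 0.82). Scaling by library size alone, which lowered the median of all genes by 0.50, turned it to −0.42, and the correction for GC content and length turned it to −0.17; neither was called. Of the exonic length of Gas6, 1.33% is shared with Tmem255b.

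The ligands were also set against each other within each library. Pros1 made up 37.6%, 33.8% and 18.5% of the summed level of both ligands per kb in WT replicates 1, 2 and 3, and 1.44%, 6.39% and 2.24% in IRF8KO replicates 1, 2 and 3. The log2 ratio of Gas6 to Pros1 counts was 0.05, 0.29 and 1.46 in WT and 5.40, 3.19 and 4.76 in IRF8KO, with no overlap. The difference of 3.85 had p = 0.1 in the two-sided exact permutation test, the smallest p that 3 against 3 allows, and an adjusted p of 0.25 over the 5 ratios compared. The sum of both ligands, in which Gas6 has the larger part, was 128.4 ± 13.7 CPM per kb in WT and 99.2 ± 14.4 CPM per kb in IRF8KO (SD, n = 3).

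Mfge8 (ENSMUSG00000030605, chromosome 7, 79133768 to 79149060, minus strand), whose product carries phosphatidylserine to integrins of the αv class, had 59.2, 63.1 and 161.7 CPM in WT replicates 1, 2 and 3. It had 226.6, 108.0 and 166.1 CPM in IRF8KO. WT replicates 1 and 2 lay below all IRF8KO libraries, and WT replicate 3 lay among them. It was not called, with a log2 fold change of 0.82 (SE 0.42, adjusted p = 0.192). Without WT replicate 3 it was 1.46 and called (adjusted p = 0.0030), and with the correction for GC content and length it was 0.93 and called (0.0429). Without both WT replicate 3 and IRF8KO replicate 2 it was 1.77 and called (1.5e-04), and with the term for GC lean it was 0.55 and not called (0.0764). Astrocytes also make MFG-E8; of their 12 markers 8 were tested, 4 were called higher and 1, Slc1a3, lower. The 12 markers summed to between 183 and 215 CPM in WT and between 141 and 226 CPM in IRF8KO. Slc1a3 had 190, 180 and 84.2 CPM in WT replicates 1, 2 and 3 and 7.85, 15.7 and 2.705 CPM in IRF8KO. Without Slc1a3 the markers summed to 24.6, 9.89 and 99.0 CPM in WT replicates 1, 2 and 3. In IRF8KO replicates 1, 2 and 3 they then summed to 218, 134 and 138 CPM. Aldoc, not called, made 17.3, 5.65 and 78.25 CPM of that remainder in WT and 144, 86.3 and 88.3 CPM in IRF8KO. Gja1 and Aqp4 were at or near 0. The part of astrocytes in the values of Mfge8 was not tested. The log2 ratio of Mfge8 to Gas6 averaged −1.42 ± 0.75 in WT and −0.60 ± 0.29 in IRF8KO, with overlap (SD, n = 3; two-sided exact permutation test, p = 0.2, adjusted 0.33 over 5 ratios).

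Timd4 (ENSMUSG00000055546, chromosome 11, 46810800 to 46844332, plus strand), a receptor found on several long-lived tissue macrophages, had 0 counts in all 6 libraries. Per library a count of 0 allows up to 3 counts, or between 0.212 and 0.582 CPM, and such floors cover counting error only. Its relatives Timd2 and Havcr1 had 0 counts throughout as well. Timd4 was thus undetected both in WT and in the IRF8KO libraries, in which 9 markers of border-associated macrophages rose.

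RefSeq promoter windows were matched for all 9 genes (assembly GRCm38.p6), with 1 window each and a second one for Elmo1. The 250 bases before each start were searched on both strands for letters that IRF8 and its partners are known to read: the ETS-IRF composite (GGAA and GAAA in that order with 2 free bases between), the same half-sites in the opposite order, the interferon response element (a pair of GAAA with 2 free bases between) and the AP-1 site TGANTCA. The GC box, GGGCGG, was searched as a common promoter element. Of the 10 windows, the composite was in that of Timd4 alone, at bases −72 to −63 from the start, and it occurs in 2.3% of all 32851 windows. The opposite order, the interferon element and the AP-1 site, which occur in 2.3%, 2.98% and 6.75% of all windows, had no match in the 10. The GC box was in 7 of the 10 windows, those of Axl, Mertk, Pros1 and Elmo1 (first start) and those of Gas6, Mfge8 and Tyro3, which were not called, against 32.7% of all windows. The last 120 bases before the start are printed for the 4 genes called lower, and for Timd4, the undetected gene with a composite. They lie at chr16:62854187-62854306 (Pros1, plus strand), chr2:128698795-128698914 (Mertk, plus), chr7:25788734-25788853 (Axl, minus), chr13:20090387-20090506 (Elmo1, first start, plus) and chr11:46810679-46810798 (Timd4, plus). Each runs 5′ to 3′ on the strand of the gene, with GC boxes on either strand in capitals in the first 4 (neighbouring boxes overlap at the end of Pros1) and the composite in capitals in Timd4.
Pros1: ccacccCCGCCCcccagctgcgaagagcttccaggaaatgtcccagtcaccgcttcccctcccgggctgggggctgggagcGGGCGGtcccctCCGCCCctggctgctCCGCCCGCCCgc
Mertk: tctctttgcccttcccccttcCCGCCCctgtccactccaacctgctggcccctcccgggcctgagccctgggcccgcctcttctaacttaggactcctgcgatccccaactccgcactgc
Axl: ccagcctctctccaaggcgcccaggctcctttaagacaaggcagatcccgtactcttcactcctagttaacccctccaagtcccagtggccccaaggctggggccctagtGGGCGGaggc
Elmo1: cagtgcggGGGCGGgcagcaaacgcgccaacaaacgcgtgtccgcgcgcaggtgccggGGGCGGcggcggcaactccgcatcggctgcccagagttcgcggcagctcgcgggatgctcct
Timd4: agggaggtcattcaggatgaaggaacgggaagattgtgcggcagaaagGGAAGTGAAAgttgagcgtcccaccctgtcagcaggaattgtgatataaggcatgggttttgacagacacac
A match of letters is a description of the window and not a binding site, and no match says only that these letters are not in these bases.

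Elmo1 (ENSMUSG00000041112, chromosome 13, 20090596 to 20608353, plus strand), the adaptor that brings a DOCK protein to the membrane, had 295.0, 340.7 and 219.3 CPM in WT replicates 1, 2 and 3. It had 89.7, 149.8 and 83.7 CPM in IRF8KO replicates 1, 2 and 3. Every IRF8KO library lay below every WT library. The log2 fold change was −1.40 (SE 0.32, adjusted p = 0.0105), or 2.64-fold lower, and the call was lost without IRF8KO replicate 1 (−1.27, adjusted p = 0.072) and without IRF8KO replicate 3 (−1.24, 0.0955). Its paralog Elmo2 was not called, at 221.7 ± 54.9 CPM in WT against 192.2 ± 22.9 CPM in IRF8KO (SD, n = 3; adjusted p = 0.651); with library size alone it was called lower (−0.68, 0.0276). Elmo1 made up 42.8%, 49.8% and 29.0% of the 3 Elmo genes per kb in WT replicates 1, 2 and 3, and 17.8%, 29.4% and 20.1% in IRF8KO, with a slight overlap between WT replicate 3 and IRF8KO replicate 2.

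Dock2 (ENSMUSG00000020143, chromosome 11, 34226815 to 34783892, minus strand), a DOCK protein of blood cells that activates Rac together with ELMO1, was not called. It had 144.0, 156.7 and 72.7 CPM in WT replicates 1, 2 and 3 and 81.2, 184.5 and 88.5 CPM in IRF8KO. The groups overlapped, with WT replicate 3 the lowest of all libraries and IRF8KO replicate 2 the highest. The log2 fold change was −0.08 (SE 0.39, adjusted p = 0.915), and its sign changed under 8 of 18 alternatives. The log2 ratio of Elmo1 to Dock2 within a library was 1.03, 1.12 and 1.59 in WT and 0.14, −0.30 and −0.08 in IRF8KO. Its groups did not overlap; the difference was −1.33, with p = 0.1 in the two-sided exact permutation test, the smallest that 3 against 3 allows (adjusted 0.25 over 5 ratios). Dock1, the paralog of most non-blood cells, averaged 8.65 ± 5.15 CPM in WT against 10.7 ± 3.34 CPM in IRF8KO (SD, n = 3) and was not called. Exons of Elmo1 and Dock2 share 3.20% and 4.03% of their length with Gm32036 and 4930403D09Rik.

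**Figure D2:**
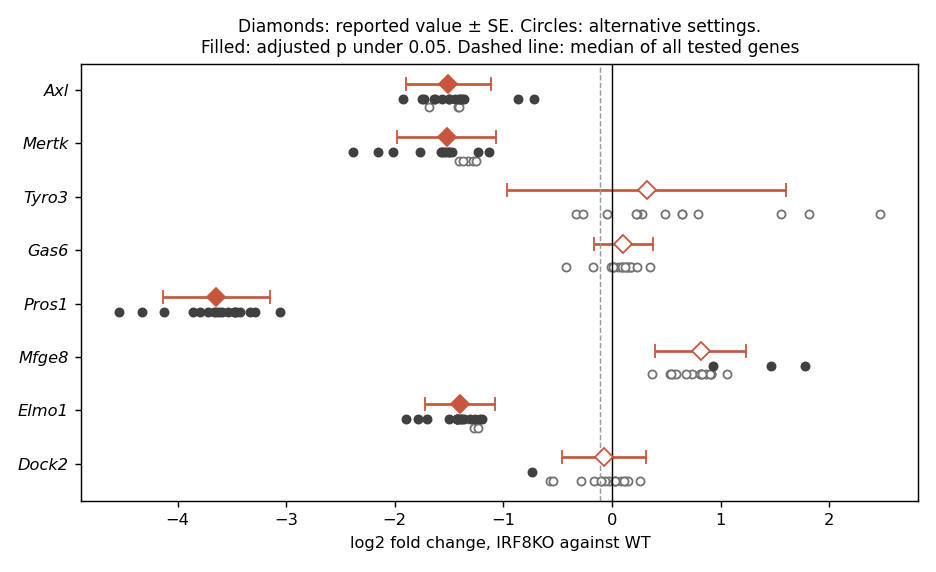
Log2 fold change of IRF8KO against WT (horizontal axis) for the 8 tested genes; diamonds give the reported value ± SE, circles the values under the alternative settings, and filled symbols an adjusted p under 0.05. Pros1 stays filled throughout, Axl, Mertk and Elmo1 have open circles on the same side of 0, and Gas6, Tyro3 and Dock2 lie on both sides of 0.

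Within each group the genes split by GC content. Over 11034 tested genes, the log2 difference of a library from the others of its group correlated with GC content at Spearman correlations of −0.522, −0.505 and 0.622 in WT replicates 1, 2 and 3 and 0.378, −0.439 and 0.0856 in IRF8KO replicates 1, 2 and 3; genes are not independent, and no p is given. In WT replicate 3 the 4 genes with the lowest GC content among those counted, Pros1 (43.4%), Elmo1 (46.9%), Mertk (48.1%) and Dock2 (49.0%), were below WT replicates 1 and 2 by log2 differences of −1.17, −0.53, −1.27 and −1.04. The 4 with the highest GC content, Axl (54.2%), Tyro3 (55.4%), Mfge8 (56.2%) and Gas6 (56.6%), were above, by 1.36, 1.60, 1.40 and 0.11. IRF8KO replicate 2 showed the opposite signs for all 8 against the mean of IRF8KO replicates 1 and 3. For Axl that sign came from IRF8KO replicate 1 (35.1 CPM), as IRF8KO replicates 2 and 3 both had 24.6 CPM. Tyro3 had at most 23 counts in any library, and Gas6 in WT replicate 3 lay between WT replicates 1 and 2. The labels name no batch.

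**Figure D3:**
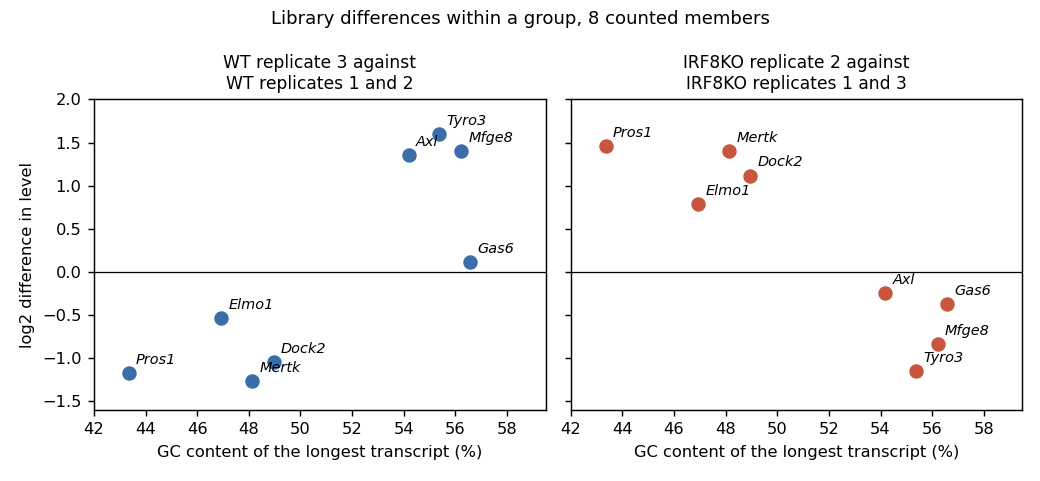
Log2 difference in level (vertical axis) of WT replicate 3 from WT replicates 1 and 2 (left) and of IRF8KO replicate 2 from IRF8KO replicates 1 and 3 (right) against the GC content of each gene's longest transcript (horizontal axis, %), 8 counted genes. On the left Pros1, Elmo1, Mertk and Dock2 lie below 0 and the others above, and on the right the signs are reversed. Tyro3 had at most 23 counts in any library.

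Values were also set side by side between libraries with the same sign of that correlation, a split chosen after the values were seen. It put WT replicate 3 beside IRF8KO replicates 1 and 3, and WT replicates 1 and 2 beside IRF8KO replicate 2, although the correlation of IRF8KO replicate 3 was weak. As every correlation is relative to the group of its library, libraries with the same sign are not shown to share a GC profile across groups. This limit also holds for the fit with that sign below. Each set has an arm of 1 library, so the ratios carry no spread and no test, and they describe these libraries only. Mertk was 2.30-fold lower in IRF8KO in the first set and 2.09-fold lower in the second. Pros1 was 11.1-fold and 8.81-fold lower, Elmo1 2.53-fold and 2.12-fold lower, and Axl 4.51-fold and 2.12-fold lower. Dock2 had IRF8KO to WT ratios of 1.17 and 1.23, Mfge8 of 1.21 and 1.77, and Gas6 of 1.11 and 0.919. A fit with that sign as a term beside genotype, also chosen after the values were seen, gave log2 fold changes of −1.13 for Mertk, −3.29 for Pros1, −1.21 for Elmo1 and −1.64 for Axl (adjusted p of 9.0e-04, 1.2e-06, 6.5e-04 and 8.6e-04; edgeR, Benjamini-Hochberg). It gave 0.26 for Dock2 (adjusted p = 0.341). That sign was taken from the same counts and takes up spread within the groups, so the smaller adjusted p are not independent support. With WT replicate 3 and IRF8KO replicate 2 both left out, Dock2 had −0.73 and was called (adjusted p = 0.0119). That fit kept WT replicates 1 and 2, with negative correlations, and IRF8KO replicates 1 and 3, with positive ones. Those correlations were taken within each group, with the omitted libraries included. They do not place WT and IRF8KO on a common GC scale, so they cannot show whether genotype and GC lean coincide in that fit. Over all tested genes, the Spearman correlation of the log2 fold change with GC content was 0.285 with all libraries, 0.397 without WT replicate 3, 0.448 without both libraries, 0.131 with the term and 0.0167 with the GC and length offset. The offset takes out the trend of each library over GC content and length, so its low value follows from how it is built. It would also take out a genotype difference that follows GC content. The calls gained without WT replicate 3 or without both libraries were those of Mfge8, Dock2, Trem2, Rhog, Akt1, Vkorc1 and Calu. They thus come from fits with a higher correlation of the fold change with GC content than with all libraries. The part of GC content in those calls was not tested.

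Compared per kb of exonic length, Gas6 was the most abundant of the 9 genes in both groups, at 89.2 ± 8.35 CPM per kb in WT and 96.1 ± 16.2 in IRF8KO (SD, n = 3), and its range did not overlap that of the next gene. In WT it was followed by Mertk (50.3 ± 21.2), Pros1 (39.1 ± 15.5), Elmo1 (22.7 ± 4.87), Mfge8 (20.2 ± 12.4), Axl (15.8 ± 9.45) and Dock2 (10.9 ± 3.96 CPM per kb), whose neighbours in that order overlapped from one gene to the next. In IRF8KO the order after Gas6 was Mfge8 (35.5 ± 12.6), Mertk (17.5 ± 10.8), Dock2 (10.3 ± 5.05), Elmo1 (8.56 ± 2.90), Axl (5.58 ± 1.20) and Pros1 (3.10 ± 2.06 CPM per kb), again with overlap between each gene and the next. Pros1 thus stood at rank 3 in WT and rank 7 in IRF8KO, and Mfge8 at rank 5 and rank 2. Tyro3 and Timd4 came last in both.

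The other genes of the pathway were taken from 6 lists with 91 names, of which 90 were matched and 67 tested; 9 were called higher and 17 lower, against 9.64% higher and 9.46% lower among all tested genes, with a median log2 fold change of −0.22, against −0.11 for all tested genes. Of the 27 other phosphatidylserine receptors and bridging molecules, 17 were tested, 8 rose and 1 fell, with a median of 0.90. Cd300lb, of a receptor family that binds phospholipids, rose from 2.35 ± 1.60 to 103 ± 15.9 CPM (log2 fold change 5.38), and Cd300ld of the same family from 1.29 ± 0.920 to 37.9 ± 8.39 CPM (4.73). Thbs1, which encodes the secreted bridge thrombospondin 1, rose from between 2.89 and 7.76 CPM in the WT libraries to between 68.0 and 168 CPM in IRF8KO (4.24), and Anxa5, which encodes a protein that coats phosphatidylserine, from 44.4 ± 2.60 to 209.9 ± 33.3 CPM (2.24; SD, n = 3). Their adjusted p (edgeR, Benjamini-Hochberg) ran from 2.7e-05 to 2.3e-04. Without WT replicate 2 Cd300ld had 5.54. The gene that fell was Itgb3, named after its values were seen, which encodes a partner of integrin αv that binds MFG-E8: 81.5 ± 16.2 CPM in WT and 19.0 ± 5.13 CPM in IRF8KO (log2 fold change −2.10, adjusted p = 8.6e-04). Itgb5, which encodes the other αv partner known to bind MFG-E8, was among the 2 most abundant genes of the list per kb and was not called (7550 ± 4342 and 4126 ± 1229 CPM; log2 fold change −0.87, adjusted p = 0.196, and −0.26 without WT replicate 3). It was called lower with library size alone (−1.30, 0.0111), with the GC and length offset (−0.84, 0.0402) and with the term for GC lean (−0.98, 0.0263). Trem2, a lipid receptor of microglia, was not called (2728 ± 1174 and 3816 ± 669 CPM; log2 fold change 0.48, adjusted p = 0.402), but was called higher without WT replicate 3 (0.92, 0.0060) and without both that library and IRF8KO replicate 2 (1.13, 9.8e-04).

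Of 25 further genes of engulfment signalling around ELMO, DOCK and Rac, 19 were tested, 7 fell and 12 did not pass, with a median log2 fold change of −0.30. Vav2, which encodes an exchange factor for Rac, fell from 91.1 ± 16.9 to 29.4 ± 1.66 CPM (−1.63, adjusted p = 0.0019). Crk, which encodes an adaptor upstream of DOCK proteins, fell from 29.9 ± 17.0 to 5.61 ± 2.54 CPM (−2.40, 0.0099). Abi1, of the actin-nucleating WAVE complex, fell by 2.05 on the log2 scale (0.026), Rac3, a Rac GTPase, by 1.33 (0.0295), and Vav1, the exchange factor of blood cells, by 1.02 (0.0441). The calls of Crk, Abi1, Rac3 and Vav1 were lost in 2, 4, 4 and 7 of 18 alternatives, each of them without IRF8KO replicate 3, with adjusted p up to 0.0747, 0.109, 0.153 and 0.223. Without IRF8KO replicate 2 Abi1 had −2.85. Over the 18 alternatives Crk ranged from −3.16 to −1.69 and Abi1 from −3.065 to −1.37. For each gene the largest fall came without both WT replicate 3 and IRF8KO replicate 2, and the smallest with the GC and length offset. Rhog, a GTPase that recruits ELMO and the other abundant gene of the list, was not called (709 ± 279 and 885 ± 107 CPM; log2 fold change 0.32, adjusted p = 0.543), was called higher without WT replicate 3 (0.72, 0.0114) and without both that library and IRF8KO replicate 2 (0.88, 0.0032), and had −0.13 with library size alone and −0.32 with the GC and length offset.

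Of 15 genes that regulate or relay TAM signals, 13 were tested, 3 fell and 1 rose, with a median of −0.23. Adam17 and Adam10 encode the proteases that shed TAM receptors from the cell surface. Adam17 fell from 122, 133 and 42.6 CPM in WT replicates 1, 2 and 3 to 12.2, 29.8 and 9.52 CPM in IRF8KO (log2 fold change −2.52, adjusted p = 0.0051) and was called in all 18 alternatives, whereas Adam10, with 62.1 ± 18.2 and 12.3 ± 13.5 CPM (−2.31, 0.0234), lost its call in 3, without IRF8KO replicate 1, without IRF8KO replicate 3 and with library size alone. Without IRF8KO replicate 2 the log2 fold changes were −3.18 for Adam17 and −3.76 for Adam10. Over the 18 alternatives Adam17 ranged from −3.47 to −1.66, the latter with count column 4. Adam10 ranged from −3.88 to −1.785, the latter with the GC and length offset. Pik3r1, which encodes a regulatory subunit of the PI3 kinase that TAM receptors recruit, fell by 1.91 (0.0342) and lost its call in 6 alternatives, among them the fit with the term for GC lean (−1.07, 0.0991). Nr1h3, which encodes a liver X receptor, rose from 0.833 ± 0.232 to 4.30 ± 2.34 CPM (2.39, 0.0491; SD, n = 3), a call lost in 9 of 15. Ptpn6, the abundant phosphatase of the list, was not called (−0.34, 0.464), but was called lower with library size alone (−0.81, 0.0071) and with the GC and length offset (−0.52, 0.047). Akt1, which encodes a kinase downstream of TAM receptors, was not called (381 ± 161 and 421 ± 57.5 CPM; 0.14, 0.798), but was called higher without WT replicate 3 (0.58, 0.0377) and without both that library and IRF8KO replicate 2 (0.62, 0.0293). Of 5 genes for vitamin K dependent carboxylation, the step that Gas6 and protein S need, 4 were tested and none was called with all 6 libraries by edgeR, DESeq2 or limma-voom, with 2 at an unadjusted edgeR p under 0.05. They include Vkorc1 (7.10 ± 3.17 and 16.6 ± 5.71 CPM), 47.7% of whose exonic length is shared with Gm21974, and Calu (59.6 ± 22.2 and 33.6 ± 5.29 CPM). Without WT replicate 3, edgeR called Vkorc1 higher (1.65, 0.0151) and Calu lower (−1.07, 0.0057), and so it did with IRF8KO replicate 2 left out too (1.94, 0.0025, and −0.98, 0.0066).

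Of 12 genes that expose or retain phosphatidylserine, 9 were tested and 3 fell, with a median of −0.22. Atp8a2, which encodes a flippase that returns the lipid to the inner leaflet, fell from 93.6 ± 21.2 to 0.977 ± 1.13 CPM (log2 fold change −6.55, adjusted p = 4.6e-05), though 15.6% of its exonic length is shared with other genes. Tmem30a, which encodes the partner subunit of such flippases, fell from 48.5 ± 15.4 to 7.40 ± 8.48 CPM (−2.68, 0.0202), a call lost without IRF8KO replicate 3 (0.128). Atp11b, another flippase, fell by 2.66 (0.0229) but lost its call in 6 of 16 alternatives. Without IRF8KO replicate 3 Atp8a2 had −8.22, and without IRF8KO replicate 2 Tmem30a had −4.15. Plscr3, of the scramblase family, was not called (95.7 ± 34.5 and 92.3 ± 15.4 CPM; −0.05, 0.928). Of 7 names for signals that restrain engulfment, 6 were matched, 5 tested and 3 fell, with a median of −1.52. Siglecg, an inhibitory sialic acid receptor, had a total of 275 counts in WT and 0 in IRF8KO, which is at least 91-fold lower after scaling for depth, with the floor of 3 counts set for the whole group. The bound is 53-fold without IRF8KO replicate 2 and 60-fold without IRF8KO replicate 3, and between 70-fold and 104-fold when one of the other libraries is left out. Pecam1, an adhesion molecule known to let living cells detach from phagocytes, fell from 19.0 ± 1.69 to 1.95 ± 1.25 CPM (−3.26, 0.0014; −3.88 without IRF8KO replicate 3; SD, n = 3). Cd22, another sialic acid receptor, fell by 1.52 (0.0356), a call lost in 5 alternatives, among them without WT replicate 3. Sirpa, the abundant receptor for the restraining signal CD47, was not called, with 3138 ± 556 CPM in WT and 1951 ± 271 in IRF8KO (−0.69, 0.161). It was called lower with library size alone (−1.17, 0.0037), with the GC and length offset (−0.61, 0.0341) and with the term for GC lean (−0.73, 0.0251). Cd47 itself was not called (57.6 ± 24.6 and 61.4 ± 16.3 CPM; 0.09, 0.886), but was called higher with the GC and length offset (0.88, 0.0095).

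**Figure D4:**
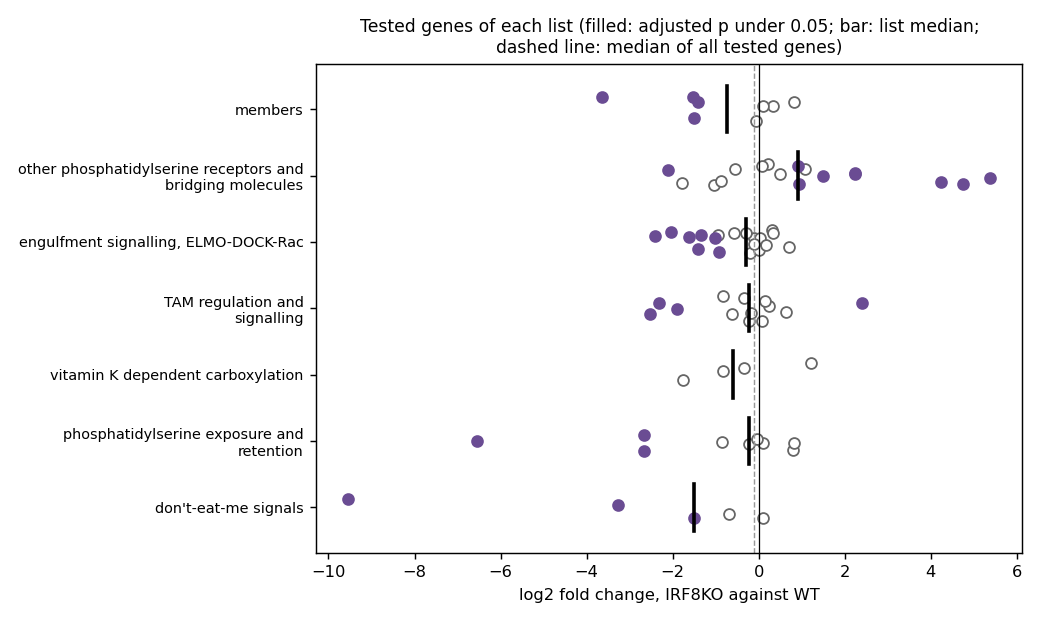
Log2 fold change of IRF8KO against WT (horizontal axis) for each tested gene of the 9 named genes and of the 6 pathway lists (rows); filled points have an adjusted p under 0.05, thick bars are list medians, and the dashed line is the median of all tested genes (−0.11). The phosphatidylserine receptor list has a median of 0.90 and the other rows have medians below 0; the leftmost point, Siglecg, is a fitted value for a gene with 0 counts in IRF8KO.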

How the data were processed

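The authors deposited raw counts per gene, 1 table per library, with 4 summary lines that were left out here; a count that ignores strand was used. Per the submitters' processing notes, STAR 2.5.2b, Picard 2.17.11, bcl2fastq, Subread, featureCounts and the build mm10 were used, with no roles stated; the annotation release is not given in the sources used here. Per the labels' protocols, full-length cDNA was made with SMART-Seq v4 and tagged with Nextera XT, without molecular identifiers, so floors cover counting error only. Of 49585 identifiers, 49326 matched GENCODE M21 (GRCm38), the source of symbols, positions, exonic lengths and the GC content of the longest transcript.

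The test was that of edgeR 4.0.16 under R 4.3.3 (filterByExpr with minimum count 10, TMM, quasi-likelihood F test, genotype as the single term, Benjamini-Hochberg over 11041 genes, threshold 0.05); standard errors follow from the F statistic. Ratios used counts plus 0.5 and exact permutation tests. Alternatives used DESeq2 1.42.0, limma-voom (limma 3.58.1), other scalings, filters and count columns, a loess offset over GC content and length (span 0.3), a replicate block, each library left out, and, chosen after the data were seen, 2 fits concerning GC lean. Counts were also simulated for 10655 genes, of which 99 were changed 2-fold and 94 were changed 4-fold. Of these changes, 4.04% and 54.3% were called. Far more genes, 2109, were called in the data, so these shares cannot be read as the sensitivity of the real comparison.

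The genes and lists were chosen with earlier results of these data known. Named were the 9 genes, per list up to 4 called genes with the smallest p and up to 2 of the highest level per kb, paralogs and Irf8. Among pairs of libraries of the same group, WT replicates 1 and 2 were the closest by counts, at a chi-square of 9.14 per degree of freedom, above sampling noise.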

Additional observations from a re-analysis of the deposited data

How the results depend on the processing

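Over 18 alternatives the number of the 9 genes called stayed between 1 and 6, against 4. Leaving out single libraries gave 1 to 5, with Pros1 alone called without IRF8KO replicate 1 or 3. For all genes it gave 910 (without IRF8KO replicate 3), 1147 (IRF8KO replicate 1), 1171 (WT replicate 2), 1308 (WT replicate 1) and 4003 calls (WT replicate 3), against 2109. Leaving out WT replicate 3 and IRF8KO replicate 2 together gave 5228. Library size alone gave 652 higher and 1914 lower calls (25.4% higher, against 50.5%). Pros1 kept its call in all 18, Elmo1 in 16, Axl in 15 and Mertk in 13. Log2 fold changes that changed sign, none of them called, follow. Dock2 had 0.029 without Apoe, 0.030 with count column 4, 0.079 with the GC and length offset and 0.26 with the GC lean term. Library size alone gave −0.42 for Gas6, −0.043 for Tyro3, −0.25 for Dock1, −0.28 for Akt1, −0.45 for Cd47 and −0.13 for Rhog. The offset gave −0.17 for Gas6 and −0.32 for Rhog, the GC lean term −0.26 for Tyro3, and the counts without Apoe 0.0076 for Plscr3. Without both libraries Dock1 had −0.29, Irf8 0.046, Ptpn6 0.065, Elmo2 0.12, Cd47 −0.36 and Plscr3 0.51. Over single libraries left out, Dock2 ranged from −0.54 to 0.15, Gas6 from −0.0095 to 0.23, Tyro3 from −0.34 to 1.81, Dock1 from −0.044 to 0.67, Elmo2 from −0.35 to 0.043, Akt1 from −0.043 to 0.58, Cd47 from −0.16 to 0.34 and Plscr3 from −0.21 to 0.31. The Axl to Mertk ratio ranged from −0.23 to 1.09, negative without WT replicate 1, WT replicate 2 or IRF8KO replicate 1. The cause was not tested. The labels do not say whether replicate numbers pair libraries. Deviations of same-numbered libraries from their group means correlated at −0.260, 0.328 and 0.114 for replicates 1, 2 and 3, which cannot decide it. The replicate block gave 2353 calls in all and 4 of the 9 genes. Tyro3 and Timd4 are limited by counts.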
